A study of Mus musculus with 12 samples.

Results

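The 10 genes described here mark goblet cells, the mucus-secreting cells of the intestinal epithelium, and were taken by name: Muc2, Tff3, Fcgbp, Clca1, Agr2, Zg16, Spdef, Atoh1, Muc13 and Creb3l1. Of these, 9 were measured, each by 1 array feature annotated with that gene alone, out of 19938 genes tested in all. Fcgbp, which encodes a large protein of the mucus gel, appears in the annotation only on 3 features shared with other genes, so no value is given for it. No filter on low values was applied to the members.

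The tissue was duodenum of strain 129 mice. One genotype was Onecut-2 knockout, with the gene for this cut-homeodomain transcription factor ablated, and the other was wild type. The 4 groups were knockout at postnatal day 30, wild type at day 30, knockout at day 15 and wild type at day 15, with 3 arrays each, and the RNA on each array came from a pool of 5 to 8 mice, males and females together. The mice were untreated, and the labels name no promoter, Cre line or batch. Values are log2 expression, and differences were called where limma's p-value, adjusted by Benjamini-Hochberg over all 19938 genes, was under 0.05. The feature for Onecut2 was lower in every knockout array, at 8.18 to 8.25 in knockout and 9.50 to 9.63 in wild type at day 30, and at 8.09 to 8.20 in knockout and 9.55 to 9.69 in wild type at day 15. Markers of the labelled tissue were present, with Pdx1, a duodenal transcription factor, at 10.15 to 10.25 in knockout and 10.35 to 10.57 in wild type at day 30 and at 9.69 to 9.83 in knockout and 9.86 to 10.02 in wild type at day 15. Pdx1 was lower in knockout over the mean of both ages (log2 fold change -0.23, limma adjusted p = 0.018). Fabp6, a bile acid binding protein of the distal small intestine, was low, at 4.71 to 5.09 over the 12 arrays. It is 1 of 7 measured distal gut genes. Their mean ran from 6.68 to 6.90 in knockout and from 6.77 to 6.88 in wild type at day 30. At day 15 it ran from 6.91 to 7.09 in knockout and from 7.16 to 7.28 in wild type. At each age 1 of the 7 was called lower in knockout, beside 1.98% of all genes called at day 30 and 3.83% at day 15.

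Goblet cells arise in the crypt from progenitors that escape Notch signalling and express Atoh1, the basic helix-loop-helix factor that commits cells to the secretory fates. Spdef, an ETS-family factor, and Creb3l1, a factor released from the endoplasmic reticulum membrane, act later in goblet cell maturation in the mouse. The mature cell folds the gel-forming mucin Muc2 in the endoplasmic reticulum with help of the disulfide isomerase Agr2, packs it in granules, and secretes it with Tff3, Clca1, Zg16 and Fcgbp. Muc13 is a transmembrane mucin that absorptive cells also carry. In bulk tissue, fewer goblet cells and less RNA per goblet cell cannot be told apart.

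The promoter windows of Muc2 and Agr2 are shown because these are the members that passed between genotypes at day 15, in opposite directions. Both are the 250 bases before the annotated start in RefSeq, build GRCm38.p6, 5′ to 3′ on the strand of the gene, for Muc2 at chr7:141690090-141690339 (plus strand) and for Agr2 at chr12:35992675-35992924 (plus strand). Capitals mark matches to the letters ATTGAT or ATTGAC, the core of sites bound by Onecut factors, or to the E-box letters CAGCTG or CAGATG, of the kind bound by Atoh1, on either strand.
Muc2: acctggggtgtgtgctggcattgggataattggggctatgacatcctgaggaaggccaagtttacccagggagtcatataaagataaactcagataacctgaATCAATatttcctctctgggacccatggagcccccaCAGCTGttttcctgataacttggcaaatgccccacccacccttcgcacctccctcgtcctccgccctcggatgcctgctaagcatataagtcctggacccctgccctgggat
Agr2: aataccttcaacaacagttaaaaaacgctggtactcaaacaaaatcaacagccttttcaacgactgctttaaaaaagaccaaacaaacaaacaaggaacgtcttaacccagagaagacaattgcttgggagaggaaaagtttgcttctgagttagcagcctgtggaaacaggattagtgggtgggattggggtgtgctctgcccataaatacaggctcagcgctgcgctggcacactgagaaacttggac
The Muc2 window holds 1 ATTGAT, read on the opposite strand, and 1 CAGCTG, and the Agr2 window holds 0 matches to any of the 4 motifs. Of 32851 promoter windows of the same length, 6.72% hold ATTGAT, 5.49% ATTGAC, 13% CAGCTG and 14.4% CAGATG. The 2 matches in the Muc2 window do not overlap. RefSeq promoter windows were at hand for 6 of the 10 members. Among the other 4, Fcgbp held 1 ATTGAT and 1 CAGCTG, 1 of the 2 starts of Muc13 held 1 CAGATG, and Spdef and Atoh1 held 0 matches. A match is a description of the letters, and whether a factor binds there was not tested.

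At day 15, Muc2 was higher and Agr2 lower in knockout duodenum than in wild type, while the other 7 members did not pass. The changes were small, 1.26-fold higher for Muc2 and 1.24-fold lower for Agr2. The share of members called, 2 of 9, stands beside 3.83% of all 19938 genes called in that comparison, 1.81% higher and 2.03% lower. The median log2 fold change over the 9 members was -0.01, the same to 2 decimals as the median of all genes, at -0.01.

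Muc2, the mucin that forms the gel, had log2 values of 12.20, 12.21 and 12.33 in the 3 knockout arrays at day 15, against 11.87, 11.91 and 11.97 in wild type. All knockout arrays lay above all wild type arrays. The log2 fold change was 0.33 (SE 0.06, 95% confidence interval 0.19 to 0.47, limma adjusted p = 0.014). Agr2, the isomerase that Muc2 needs for its disulfide bonds in the mouse intestine, had 11.28, 11.32 and 11.32 in knockout, against 11.61, 11.60 and 11.63 in wild type. The groups were again apart, with knockout below wild type, and the spread within each was the smallest of any member at that age (SD 0.03 in knockout and 0.01 in wild type). The log2 fold change was -0.31 (SE 0.05, 95% confidence interval -0.41 to -0.20, limma adjusted p = 0.0042).

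Clca1, a secreted metalloprotease that cleaves Muc2 in the mucus, lay at 12.92, 13.10 and 13.19 in knockout arrays at day 15, against 13.19, 13.32 and 13.41 in wild type. All knockout values were below all wild type values, by less than 0.01 at the nearest pair, and the difference did not pass (log2 fold change -0.24, SE 0.07, limma adjusted p = 0.11). Muc2 was the 1 member wholly above wild type, and Agr2 and Clca1 were the 2 wholly below, beside 9.09% and 12.2% of all genes (21.3% together). The transcription factors Atoh1 (0.09, adjusted p = 0.66), Spdef (-0.12, adjusted p = 0.56) and Creb3l1 (-0.14, adjusted p = 0.47) overlapped between genotypes, as log2 fold changes with limma. Their 95% intervals ran from -0.07 to 0.26, from -0.30 to 0.05 and from -0.32 to 0.03. Tff3, the trefoil peptide of the goblet granule, Zg16, a lectin that binds bacteria in the mucus, and Muc13 had log2 fold changes of 0.04, -0.01 and 0.06, with intervals within -0.15 to 0.22.

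At day 30 none of the 9 members passed between genotypes by limma, beside 1.98% of all genes (1.04% higher and 0.943% lower), while 3 had an unadjusted p under 0.05. The largest difference was that of Atoh1, which had log2 values of 9.43, 9.50 and 9.50 in knockout, against 9.09, 9.24 and 9.20 in wild type. All knockout arrays lay above all wild type arrays, with a log2 fold change of 0.30 (SE 0.08, 95% interval 0.14 to 0.46, limma adjusted p = 0.070). This adjusted p ranged from 0.021 to 0.23 over the alternative settings and passed in 4 of them, none of which left out an array.

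Muc2 at day 30 had 12.57, 12.37 and 12.43 in knockout, against 12.26, 12.27 and 12.17 in wild type. The groups were apart in the same direction as at day 15, with a log2 fold change of 0.23 that did not pass (SE 0.06, limma adjusted p = 0.12). Clca1 had 12.93, 12.88 and 12.98 in knockout, against 13.12, 13.17 and 13.13 in wild type. It was again below wild type on every array, with a log2 fold change of -0.21 that did not pass (SE 0.07, limma adjusted p = 0.25). The 2 members wholly above wild type, Atoh1 and Muc2, and the 1 wholly below, Clca1, stand beside 7.95% and 7.49% of all genes (15.4% together). Agr2 had 11.55, 11.57 and 11.54 in knockout, against 11.51, 11.60 and 11.47 in wild type, and these overlapped (log2 fold change 0.02, 95% interval -0.08 to 0.13). Tff3, Zg16, Spdef, Muc13 and Creb3l1 overlapped as well, with log2 fold changes between -0.05 and 0.05.

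**Figure D1:**
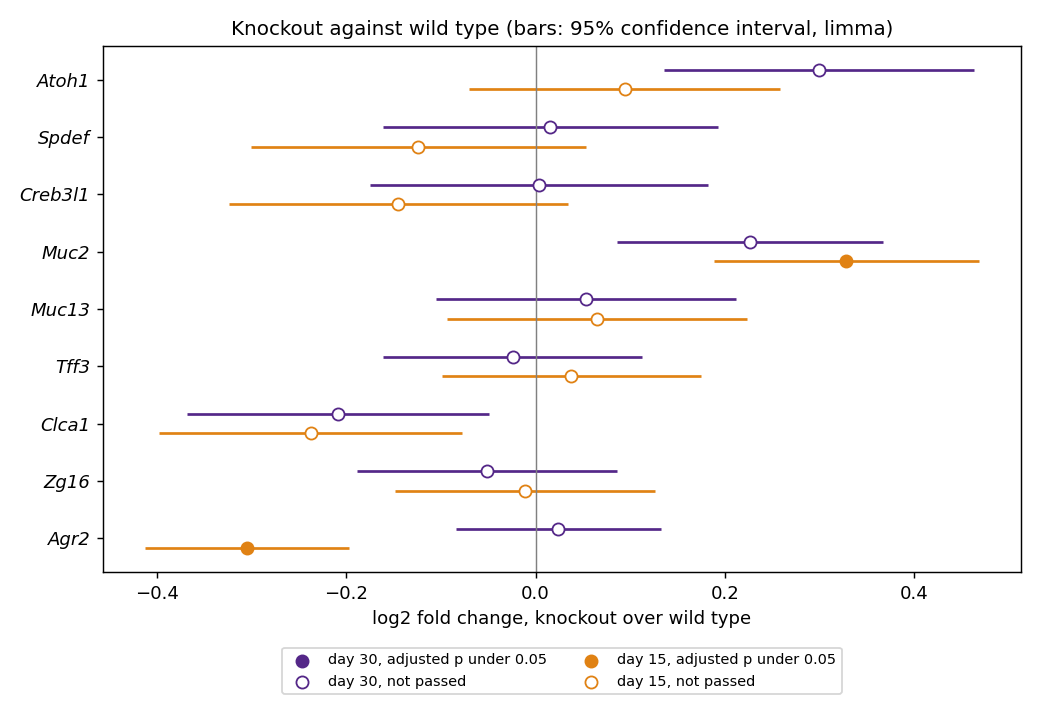
Log2 fold changes of the 9 goblet cell genes, knockout over wild type, at day 30 (purple, upper of each pair) and day 15 (orange, lower), with 95% confidence intervals from limma. Filled points passed at adjusted p under 0.05: Muc2 at 0.33 and Agr2 at -0.31, both at day 15, while Clca1 lies below 0 and Muc2 above it at both ages.

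Averaging the knockout effect over both ages, a contrast added after the values had been seen, called Muc2 higher (0.28, SE 0.05, limma adjusted p = 0.0027) and Clca1 lower (-0.22, SE 0.05, adjusted p = 0.027), on the log2 scale. Agr2 was lower as well (-0.14, SE 0.04, adjusted p = 0.037), and Atoh1 did not pass (0.20, SE 0.05, adjusted p = 0.053). This is 3 of 9 members, beside 5.34% of all genes (2.48% higher and 2.86% lower). Only the Muc2 call held without each array in turn, while the call of Clca1 was lost in 7 of these 12 fits and that of Agr2 in 11. The 2 ages differed most for Agr2. The difference between the genotype effects, day 30 minus day 15, was 0.33 for Agr2 (SE 0.07, unadjusted p = 0.00048, limma adjusted p = 0.074) and did not pass. It passed in 2 alternatives, the fit with an intensity trend (adjusted p = 0.0054) and the fit without dim genes (adjusted p = 0.042). None of the 9 members passed this test in limma, beside 0.456% of all genes, and 1 had an unadjusted p under 0.05.

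Marker genes of other cells moved with genotype at day 15, and their part in these differences was not tested beyond the values given here. The counts of called markers stand beside 3.83% of all genes called at day 15 and 1.98% at day 30. The mean over 12 smooth muscle genes ran from 10.46 to 10.64 in knockout and from 10.74 to 10.84 in wild type, with 3 of the 12 called lower. The mean over the 13 measured genes of stomach and Brunner gland, the mucous gland of the duodenal wall, ran from 9.21 to 9.73 in knockout and from 9.70 to 9.87 in wild type, with 4 of 13 lower. Paneth cells share Atoh1 and Spdef with goblet cells, and the mean over 7 measured Paneth genes ran from 10.32 to 10.56 in knockout and from 9.09 to 9.31 in wild type, with 6 of 7 higher. The mean over 12 pan-epithelial genes ran from 11.17 to 11.23 in knockout and from 11.12 to 11.15 in wild type, with 0 of 12 called. Acinar genes of the pancreas, which lies against the duodenum, had a mean of 12.38 to 12.93 in knockout and 13.10 to 13.16 in wild type, with 0 of 10 called. Of the 10, 7 lay wholly below wild type, beside 12.2% of all genes. At day 30 the acinar mean ran from 12.38 to 12.94 in knockout and from 12.73 to 13.50 in wild type, with 0 of 10 called. Over the mean of both ages 2 of 10 were lower, beside 5.34% of all genes called. The stomach and Brunner gland mean at day 30 ran from 9.46 to 9.62 in knockout and from 9.39 to 9.89 in wild type, with 2 of 13 lower. At day 30 the Paneth gene mean ran from 10.98 to 11.10 in knockout and from 10.42 to 10.52 in wild type, with 4 of 7 higher, and 0 of 12 smooth muscle genes passed. Among single markers, the log2 fold change of Lyz1, the Paneth cell lysozyme, was 0.22 at day 30 (limma adjusted p = 0.23) and 1.15 at day 15 (adjusted p = 2.7e-06). That of Myh11, the smooth muscle myosin, was -0.07 at day 30 (limma adjusted p = 0.75) and -0.31 at day 15 (adjusted p = 0.012), and that of Chga, of enteroendocrine cells, was 0.05 at day 30 and -0.23 at day 15, neither of which passed. Other genes of the 14 for enteroendocrine cells did move, with 4 called higher and 3 lower at day 30 and 4 higher and 4 lower at day 15. The hormone genes Gip (0.47 at day 30 and 0.72 at day 15) and Nts (0.90 and 1.89) were higher and Tph1, of serotonin synthesis, was lower (-0.55 and -0.88). The enteroendocrine mean ran from 8.63 to 8.74 in knockout and from 8.53 to 8.59 in wild type at day 15. The mean of 10 lymphocyte genes ran from 6.94 to 7.13 in knockout and from 6.61 to 6.86 in wild type at that age, with 2 of 10 higher. The mean of 12 absorptive enterocyte genes ran from 12.99 to 13.03 in knockout and from 12.77 to 12.85 in wild type at day 30, with 3 of 12 higher. When the smooth muscle mean was added to the fit, neither Muc2 (0.42, limma adjusted p = 0.19) nor Agr2 (-0.26, adjusted p = 0.31) passed at day 15. That mean itself separates the genotypes at day 15, and all genes called fell from 764 to 78 with it. Muscle content and genotype therefore cannot be told apart in this fit. With the stomach and Brunner gland mean added, neither passed (0.30, adjusted p = 0.16, and -0.29, adjusted p = 0.072), and all genes called fell to 255. Without knockout replicate 3 or without wild type replicate 1 or 2 the Muc2 call was lost, with log2 fold changes of 0.29, 0.31 and 0.32 and limma adjusted p of 0.064, 0.053 and 0.054, while Agr2 held without each of the 6 arrays. Without replicate 1 of both genotypes the Muc2 difference was 0.33 (limma adjusted p = 0.069).

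**Figure D2:**
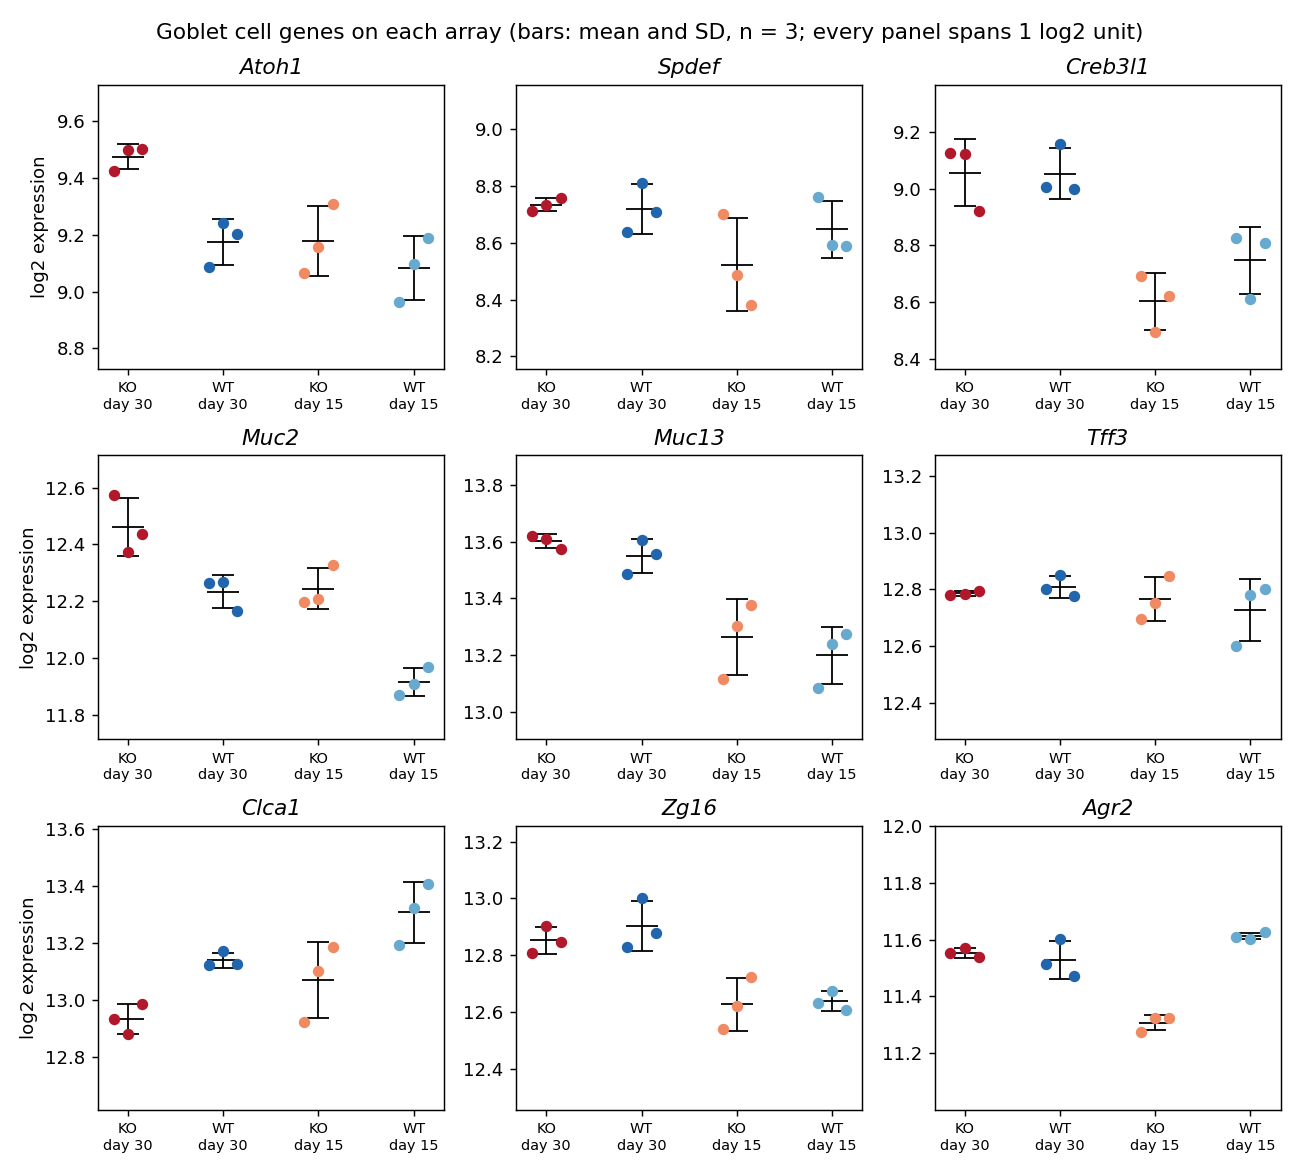
Log2 expression of each goblet cell gene on the 12 arrays, with points for arrays and bars for the mean and SD of 3 arrays (KO, knockout; WT, wild type). Every panel spans 1 log2 unit: Muc2 is lowest in wild type at day 15 (11.87 to 11.97), Agr2 is lowest in knockout at day 15 (11.28 to 11.32), and Tff3 lies between 12.60 and 12.85 on all arrays.

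Weaning falls between these ages in mice, and several goblet genes were higher at the later age. In knockout duodenum 6 of 9 members rose by limma's test (Creb3l1, Muc13, Atoh1, Agr2, Zg16 and Muc2) and 0 fell, beside 31% of all genes called, 13.8% higher and 17.2% lower. In wild type 4 of 9 rose (Muc13, Muc2, Creb3l1 and Zg16) and 0 fell, beside 29.3% of all genes, 12.3% higher and 17% lower. The median log2 fold change of the 9 members was 0.23 in knockout and 0.09 in wild type, beside 0.03 and 0.02 for all genes. The changes were again small, up to 1.37-fold for Creb3l1 in knockout. All day 30 arrays lay above all day 15 arrays for 7 members in knockout, beside 20.9% of all genes. In wild type that held for 4 members, beside 20.7% of all genes, and 2 members had all day 30 arrays below, beside 23.1%. Groups apart in either direction made up 42.8% of all genes in knockout and 43.8% in wild type.

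Creb3l1 had 9.13, 9.12 and 8.92 at day 30 against 8.69, 8.49 and 8.62 at day 15 in knockout, a rise of 0.45 on the log2 scale (SE 0.08, limma adjusted p = 9.7e-04). In wild type it had 9.004, 9.157 and 8.998 at day 30 against 8.83, 8.61 and 8.81 at day 15, a rise of 0.30 on the log2 scale (SE 0.08, limma adjusted p = 0.013). The ages were apart in both genotypes. Without wild type replicate 2 of either age the wild type call was lost (adjusted p = 0.067 without the day 15 array and 0.060 without the day 30 array).

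Muc13 had 13.62, 13.61 and 13.58 at day 30 against 13.12, 13.30 and 13.38 at day 15 in knockout. In wild type it had 13.49, 13.60 and 13.56 at day 30 against 13.09, 13.24 and 13.28 at day 15. Its log2 fold changes were nearly equal, 0.34 in knockout (limma adjusted p = 0.0033) and 0.35 in wild type (adjusted p = 0.0027), with SE 0.07 for each. Muc2 rose by 0.22 in knockout (SE 0.06, limma adjusted p = 0.022) and by 0.32 in wild type (SE 0.06, adjusted p = 0.0022). Its highest values were in knockout at day 30 and its lowest in wild type at day 15, while wild type at day 30 (12.23 ± 0.06, SD, n = 3) and knockout at day 15 (12.24 ± 0.07, SD, n = 3) overlapped in between. The Muc2 rise in knockout was no longer called without knockout replicate 1 at day 30 (0.16, adjusted p = 0.098) or without replicate 1 or 2 at day 15 (0.19 and 0.20, adjusted p = 0.074 for both).

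Zg16 had 12.81, 12.90 and 12.85 at day 30 against 12.54, 12.62 and 12.72 at day 15 in knockout, and 12.83, 13.002 and 12.88 at day 30 against 12.63, 12.68 and 12.61 at day 15 in wild type. The ages were apart in both genotypes, with log2 fold changes of 0.23 in knockout (SE 0.06, limma adjusted p = 0.016) and 0.26 in wild type (SE 0.06, adjusted p = 0.0064). The knockout call was lost without replicate 1 at day 15 (0.18, adjusted p = 0.069) or replicate 2 at day 30 (0.20, adjusted p = 0.054). Atoh1 rose in knockout by 0.30 (SE 0.08, limma adjusted p = 0.0089), with 9.43 to 9.50 at day 30 against 9.07 to 9.31 at day 15. In wild type its ages overlapped, with 9.09 to 9.24 at day 30 against 8.97 to 9.19 at day 15 and a difference of 0.09 in log2 units (SE 0.08, limma adjusted p = 0.40). The test of the difference between these changes gave 0.21 (SE 0.11, limma adjusted p = 0.64) and did not pass, so a rise limited to knockout is not shown.

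Agr2 was higher at day 30 in knockout and lower there, without passing, in wild type. In knockout it rose by 0.25 (SE 0.05, limma adjusted p = 0.0021), with all day 30 arrays above all day 15 arrays. The low knockout values at day 15 enter both this rise and the genotype difference at that age. In wild type all 3 day 30 arrays, at 11.47 to 11.60, lay below all 3 day 15 arrays, at 11.60 to 11.63, though the nearest pair were equal to 2 decimals, with a log2 fold change of -0.08 that did not pass (SE 0.05, limma adjusted p = 0.24). The log2 fold change of Clca1 was -0.14 in knockout and -0.17 in wild type (SE 0.07 for each), and neither passed (limma adjusted p = 0.18 and 0.11). Spdef lay at 8.71 to 8.76 at day 30 against 8.38 to 8.70 at day 15 in knockout, and at 8.64 to 8.81 at day 30 against 8.59 to 8.76 at day 15 in wild type. Its log2 fold changes were 0.21 in knockout (limma adjusted p = 0.068) and 0.07 in wild type (adjusted p = 0.56), neither of which passed. Tff3 overlapped between ages in both genotypes, with log2 fold changes of 0.02 in knockout and 0.08 in wild type and 95% intervals within -0.12 to 0.22.

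**Figure D3:**
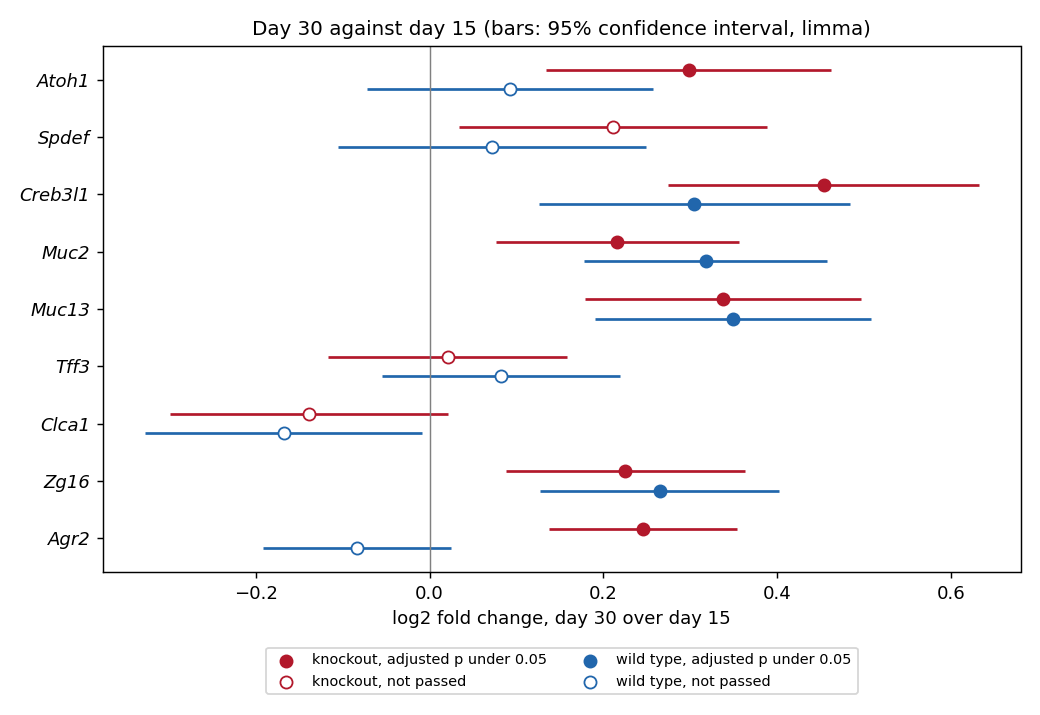
Log2 fold changes of the 9 goblet cell genes, day 30 over day 15, in knockout (red, upper of each pair) and wild type (blue, lower), with 95% confidence intervals from limma. Filled points passed at adjusted p under 0.05, 6 in knockout and 4 in wild type, all to the right of 0, and Clca1 lies to the left of 0 in both genotypes.

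Markers of other tissue layers differed between the ages as well, and their part in the age differences was not tested beyond the values given here. All 12 smooth muscle genes were lower at day 30 in both genotypes, with medians of -0.47 in knockout and -0.64 in wild type, and their mean ran from 10.04 to 10.08 at day 30 against 10.46 to 10.64 at day 15 in knockout, and from 10.02 to 10.19 at day 30 against 10.74 to 10.84 at day 15 in wild type. Of 12 pan-epithelial genes, 6 were higher and 1 lower in knockout (median 0.16) and 8 higher and 1 lower in wild type (median 0.18). The epithelial adhesion genes Epcam (0.01 and 0.10) and Cdh1 (-0.08 and -0.00) did not pass in knockout or wild type. Taken relative to the pan-epithelial mean of each array, 2 members were called in knockout, Creb3l1 higher (0.33, limma adjusted p = 0.0060) and Clca1 lower (-0.27, adjusted p = 0.023). In wild type 2 were called, both lower, Clca1 (-0.34, adjusted p = 0.0048) and Agr2 (-0.26, adjusted p = 0.0026). With the smooth muscle mean added to the fit none of the 9 passed by limma in either genotype, and only 223 of all genes in knockout and 37 in wild type did, a mean that itself separates the ages.

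Other genes of the goblet cell were listed to set beside the members, and 25 of 26 were measured. Between genotypes 4 were higher and 1 lower at day 15, and 3 were higher and 1 lower at day 30, with list medians of 0.01 and 0.03 against -0.01 and -0.00 for all genes. The shares of all genes called were 3.83% at day 15 and 1.98% at day 30. Spink4, a Kazal-type protease inhibitor of goblet cells, was higher in knockout at both ages. It had 11.93, 11.71 and 11.69 in knockout, against 11.26, 11.31 and 11.20 in wild type at day 30 (log2 fold change 0.52, SE 0.08, limma adjusted p = 0.0027). At day 15 it had 11.15, 11.22 and 11.32 in knockout, against 10.69, 10.86 and 10.87 in wild type (0.42, SE 0.08, limma adjusted p = 0.0080). It also rose with age, by 0.55 in knockout and 0.45 in wild type. The chemokine genes Ccl9 (0.65 at day 30 and 0.46 at day 15) and Ccl6 (0.41 and 0.36), which myeloid cells express too, passed at both ages as well. Klf4, a zinc-finger factor of goblet and surface cells, was higher in knockout at day 15 (0.47, limma adjusted p = 0.0075) and at 0.02 at day 30. The member of the list called lower at both ages was Sct, the hormone gene secretin (-0.32 at day 30 and -0.31 at day 15), which is better known from enteroendocrine cells. The other 20 genes at day 15 and 21 at day 30 did not pass.

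With age, 7 of these 25 genes rose and 0 fell in knockout, beside 13.8% of all genes higher and 17.2% lower. In wild type 4 rose and 1 fell, beside 12.3% higher and 17% lower. In either direction 31% and 29.3% of all genes were called. The genes that rose included Txndc5, a disulfide isomerase, at 0.33 in knockout and 0.30 in wild type. Retnlb, a secreted goblet cell protein induced by bacteria and worms, was singled out after its values were seen, for the spread between its pools. It had 10.88, 10.99 and 9.82 at day 30 against 6.64, 8.97 and 8.79 at day 15 in knockout (log2 fold change 2.43, SE 0.62, limma adjusted p = 0.0094). In wild type it had 8.38, 10.51 and 9.56 at day 30 against 7.72, 8.97 and 8.30 at day 15, ages that overlapped (1.15, SE 0.62, limma adjusted p = 0.19). Its SD within a group reached 1.29, in knockout at day 15.

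Of 14 further mucin family genes listed, 10 were measured, and some of the cell membrane and of the stomach were higher at day 30. Muc4, a transmembrane mucin, rose by 1.75 in knockout and 1.70 in wild type (SE 0.14, limma adjusted p = 1.3e-06 and 1.6e-06), and Muc3, another, by 0.71 and 0.88. Muc5ac, the surface mucin of the stomach, rose by 1.99 and 1.85, with knockout arrays at 8.97, 9.46 and 9.61 and wild type arrays at 8.31, 10.15 and 8.12 at day 30. In all, 5 of 10 rose with age in knockout and 4 of 10 in wild type, and 0 fell, beside 13.8% and 12.3% of all genes higher. Between genotypes 1 of the 10 was called, at day 15, beside 3.83% of all genes. This was Muc6, the gland mucin of stomach and Brunner gland. It had 12.05, 11.89 and 11.73 in knockout, against 12.77, 12.38 and 12.53 in wild type (log2 fold change -0.67, SE 0.10, limma adjusted p = 0.0026). Muc6 thus moved against Muc2 at that age, and the trefoil gene Tff2, made by the same glands, was lower too (-0.53, limma adjusted p = 5.8e-04), while Tff1 (-0.40) and Tff3 (0.04) did not pass. Muc6 and Tff2 also belong to the list of stomach and Brunner gland genes. The other 9, Muc1, Muc3, Muc4, Muc5ac, Muc5b, Muc15, Muc16, Muc20 and Mucl3, did not pass between genotypes at either age.

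Of 17 listed relatives of the members' families, 15 were measured, and between genotypes 2 were higher and 1 lower at day 15 and 1 was lower at day 30, beside 3.83% and 1.98% of all genes called. Clca4a (0.70, limma adjusted p = 0.0083) and Clca4b (0.53, adjusted p = 0.0085) were higher in knockout at day 15, with log2 fold changes of 0.52 and 0.34 at day 30 that did not pass. Clca4a had 10.48, 10.70 and 10.55 in knockout, against 9.50, 10.16 and 9.96 in wild type at day 15. Clca3b was lower in knockout at day 30 (-0.46, adjusted p = 0.046) and rose with age by 0.96 in knockout and 1.32 in wild type. These genes are close copies of one another, so a feature may take up signal from a neighbour. Agr3, the nearest relative of Agr2, did not pass between genotypes (-0.01 at day 15 and -0.15 at day 30), and neither did Creb3l2, Creb3l3, Creb3l4, Clca2, Clca3a1, Clca3a2, Retn, Retnla and Retnlg.

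**Figure D4:**
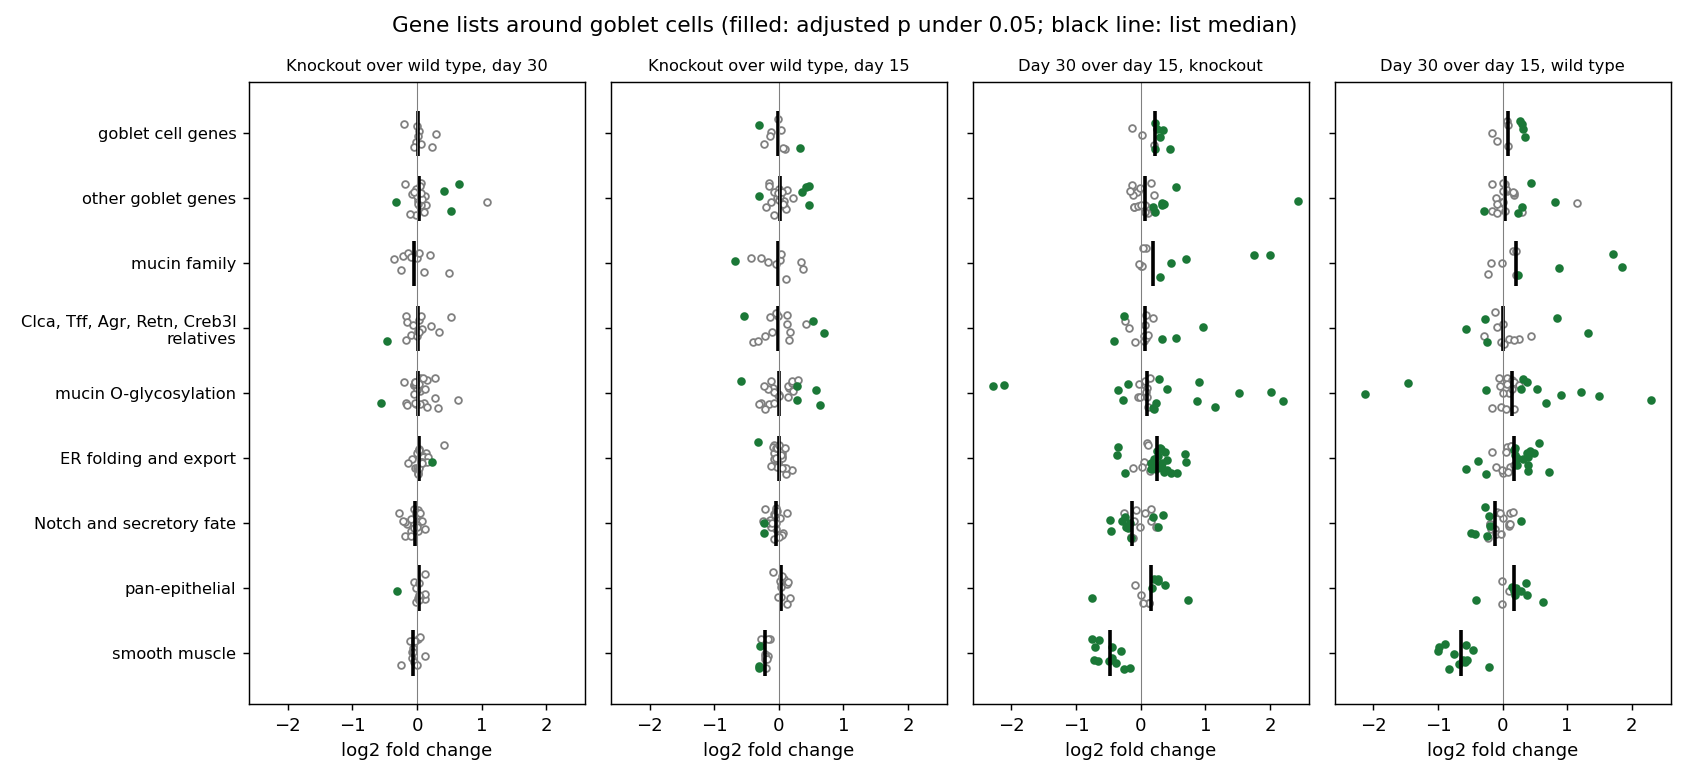
Log2 fold changes of each gene of 9 lists (rows) in 4 comparisons (panels), with filled points for adjusted p under 0.05 by limma and black lines for list medians. The medians of the goblet cell genes lie near 0 between genotypes (0.02 at day 30 and -0.01 at day 15), with Muc2 at 0.33 and Agr2 at -0.31 filled at day 15. With age (day 30 over day 15) the endoplasmic reticulum genes lie mostly to the right (medians 0.25 in knockout and 0.18 in wild type) and all 12 smooth muscle genes to the left.

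Enzymes that build O-linked glycans, the sugars that coat mucins, changed with age in both directions. Of 26 genes, 11 rose and 5 fell in knockout and 9 rose and 3 fell in wild type, beside 31% and 29.3% of all genes called in either direction. B3gnt3, which extends core glycans with N-acetylglucosamine, rose by 2.02 in knockout and 2.29 in wild type (SE 0.06 for each). B3gnt7, a relative of it, rose by 1.53 and 1.22 and the N-acetylgalactosamine transferase B4galnt3 by 0.90 in both genotypes, while the sialyltransferase St3gal1 fell (-2.28 in knockout and -2.13 in wild type). Between genotypes at day 15, Gcnt4 (0.58), B4galnt3 (0.29), B3gnt3 (0.28) and St6galnac1 (0.64, named after its value was seen) were higher in knockout and the sialyltransferase St3gal6 was lower (-0.59, limma adjusted p = 1.9e-04), and at day 30 St3gal6 alone of the 26 passed (-0.56, adjusted p = 3.4e-04). Of all genes, 3.83% were called between genotypes at day 15 and 1.98% at day 30. St3gal6 had 9.95, 9.99 and 9.93 in knockout, against 10.42, 10.55 and 10.59 in wild type at day 30, and 9.61, 9.58 and 9.46 in knockout, against 10.06, 10.21 and 10.15 in wild type at day 15. Gcnt3, a branching enzyme of mucin glycans, was the single gene of this list whose genotype effects differed between ages (0.62, SE 0.11, limma adjusted p = 0.032).

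Genes of protein folding and export in the endoplasmic reticulum, which a mucin-secreting cell uses heavily and plasma cells and Paneth cells use too, moved with age. Of 29 measured genes, 19 rose and 3 fell in knockout and 14 rose and 3 fell in wild type, beside 13.8% higher and 17.2% lower of all genes in knockout and 12.3% higher and 17% lower in wild type. The list medians were 0.25 in knockout and 0.18 in wild type, beside 0.03 and 0.02 for all genes. Among them were Sec11c (0.70 in knockout and 0.71 in wild type), Sdf2l1 (0.68 and 0.56), the chaperone gene Hyou1 (0.57 and 0.42), Edem1 (0.47 and 0.49) and the unfolded-protein-response factor Xbp1 (0.40 and 0.38). The mean of 10 measured lymphocyte and plasma cell genes moved with age beside them, at 8.97 to 9.04 at day 30 against 6.94 to 7.13 at day 15 in knockout and at 9.04 to 9.05 at day 30 against 6.61 to 6.86 at day 15 in wild type, and its part was not tested. The mean of 7 measured Paneth genes was 10.98 to 11.10 at day 30 against 10.32 to 10.56 at day 15 in knockout, with 6 of 7 higher. In wild type it was 10.42 to 10.52 at day 30 against 9.09 to 9.31 at day 15, with 7 of 7 higher. The part of the Paneth genes was not tested either. Between genotypes 1 of the 29 passed at each age, beside 3.83% of all genes at day 15 and 1.98% at day 30. These were Dnajc10, a disulfide reductase, at day 15 (-0.33, limma adjusted p = 0.038) and Sec24d, of the vesicle coat, at day 30 (0.23, adjusted p = 0.039).

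Genes of Notch signalling and the choice of secretory fate were listed beside Atoh1. With age, of 22 genes, 3 rose and 9 fell in knockout and 1 rose and 6 fell in wild type, beside 31% and 29.3% of all genes called, which also fell more often than they rose. The wild type share of the list is near that of all genes. Among those that fell were the ligand genes Dll1 (-0.47 in knockout and -0.21 in wild type) and Jag1 (-0.24 and -0.49). Hes1, the Notch target that represses Atoh1, was looked up after the values were seen and stood at -0.02 in knockout and 0.01 in wild type. Between genotypes at day 15 the ligand gene Dll4 (-0.23, limma adjusted p = 0.049) and Nfix (-0.23, adjusted p = 0.048) were lower and at day 30 0 of 22 passed. All genes called were 3.83% at day 15 and 1.98% at day 30. A list for type 2 cytokine signalling and mast cells, which drive goblet cells in worm infection, had 11 measured genes. At day 15, 2 were higher in knockout and 0 passed at day 30, beside the same shares of all genes. These were the receptor genes Il4ra (0.37, limma adjusted p = 0.012) and Il22ra1 (0.27, adjusted p = 0.038). The product of Il22ra1 binds interleukin 22, which is not a type 2 cytokine.

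Within groups, some members moved together from array to array. The deviations of Tff3, Clca1, Muc13 and Atoh1 from their group means correlated with Pearson r of 0.84 to 0.89 in all 6 pairs over the 12 arrays, and those of Spdef ran against Clca1 with r = -0.76. These points share the normalization of each array, and the values are a description. Much of the pattern rested on replicate 1 at day 15, which was the lowest of its group for Tff3, Clca1, Muc13 and Atoh1 and the highest for Spdef in both genotypes. Without those 2 arrays the 6 correlations ran from 0.43 to 0.79 and that of Spdef with Clca1 was 0.06. The r of Muc2 with the other members ran from 0.57 with Clca1 to -0.46 with Spdef. The 5 genes closest to Muc2 by this measure were Tram1l1, Ubtf, Pdia6, Fscn1 and Eddm3b, with r of 0.89 to 0.91, and Clca1, the closest member, ranked 720 of 19937 genes.

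**Figure D5:**
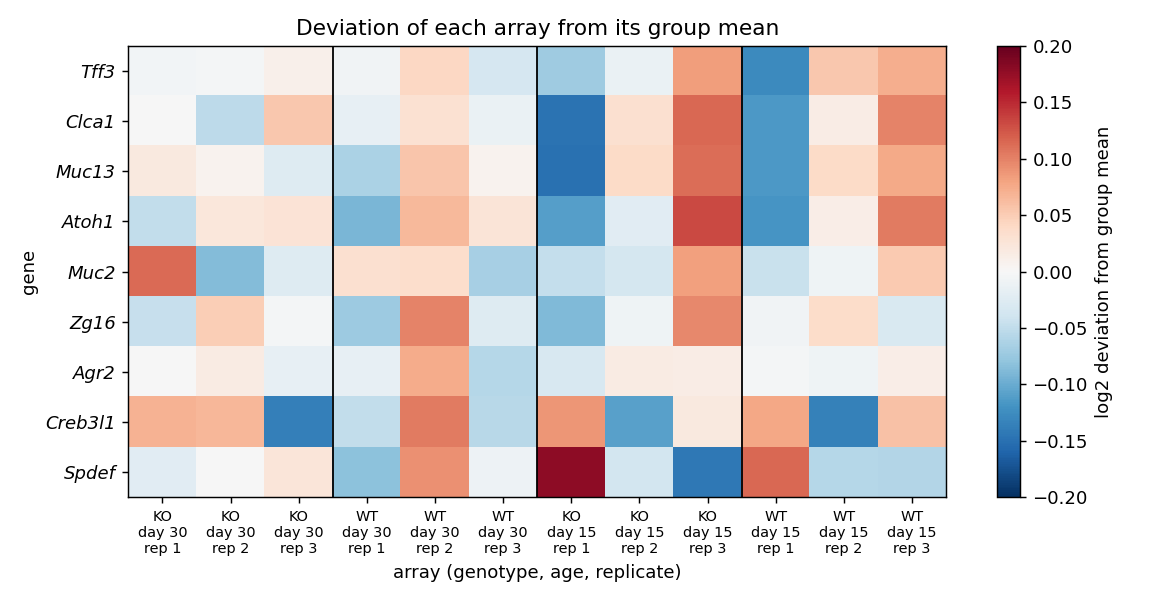
Deviation of each array (columns) from the mean of its group for the 9 goblet cell genes (rows), on the log2 scale. The day 15 replicate 1 columns of both genotypes are low for Tff3, Clca1, Muc13 and Atoh1 and high for Spdef.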

How the data were processed

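Each of the 12 samples was 1 array of biotin-labelled cRNA prepared from 5.5 µg of total RNA. The log2 values were deposited by the authors as normalized with RMA in Affymetrix Expression Console 1.1, per the submitters' processing notes, and array medians were 7.20 to 7.25. No source used here names the build behind the feature annotation. Of 35557 features, 21789 had 1 gene symbol, 1621 had several and 12147 had none. Features with 1 symbol were kept, and for the 999 genes with several the one with the highest mean was used. For 19938 genes, limma 3.58.1 estimated the 4 group means in R 4.3.3 (12 arrays, 8 residual degrees of freedom), p-values were adjusted by Benjamini-Hochberg, and 95% confidence intervals are from that fit. The number of arrays limits the precision, and p-values measure the spread between pools, whose litters are not given. The members and gene lists were chosen with earlier results of these data known. The genes named are the members, Onecut2, up to 4 called genes per list and comparison with the smallest p, all mucin genes and family relatives measured, the markers Cdh1, Epcam, Myh11, Muc5ac, Muc6, Lyz1 and Chga, and the 5 genes most correlated with Muc2. Genes flagged for a difference between ages, Fabp6 as a regional marker and the genes said to be so were named outside this rule, after their values were seen. Over all groups, same-numbered arrays deviated together no more than others (r from -0.24 to 0.27 over 18 pairs, beside -0.32 to 0.33 over 36), and the model has no replicate term. At day 15 same-numbered arrays of the 2 genotypes had r of 0.25, -0.01 and 0.18, beside -0.25 to 0.12 for other numbers. At day 30 same-numbered arrays had r of -0.09, 0.08 and -0.22. A replicate term was fitted as an alternative. The model code was tested on simulated data.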

Additional observations from a re-analysis of the deposited data

Results flagged for a closer look

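Genotype effects that differed between ages are given here as the knockout effect at day 30 minus that at day 15, on the log2 scale, with limma's adjusted p. For Agr2 the difference was 0.33 (adjusted p = 0.074, which did not pass). All its day 30 arrays lay above the day 15 arrays in knockout and below them in wild type. Slc2a2, a glucose transporter of enterocytes, had its ages apart in the same opposite way (0.33, adjusted p = 0.27, which did not pass). Hnf4a, a transcription factor of the epithelium, had all knockout arrays below wild type at day 30 and above wild type at day 15 (-0.17, adjusted p = 0.53, which did not pass). The mucin glycan enzyme Gcnt3 (0.62, adjusted p = 0.032) passed, with all knockout arrays above wild type at day 30 and below at day 15. So did the Paneth cell genes Defa24 (-1.2, adjusted p = 0.00047), Itln1 (-0.7, adjusted p = 0.0016) and Lyz1 (-0.92, adjusted p = 0.0025), whose excess in knockout was smaller at day 30. The stomach genes Cym (1.6, adjusted p = 0.00079) and Cblif (-0.82, adjusted p = 0.033) passed in opposite directions.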

How the results depend on the processing

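Between genotypes at day 15, 2 of 9 members passed. That count was 0 with the mean of either smooth muscle or stomach and Brunner gland genes added as a covariate, 1 without replicate 1 of both genotypes, an alternative chosen after seeing the data, and 1 to 2 without each array in turn. It reached 3 at the highest, and Clca1 gained a call in 2 alternatives (lowest limma adjusted p = 0.035). At day 30, where 0 passed, the count was 2 with an intensity trend and robust moderation, and 1 without dim genes, with array weights, with the smooth muscle covariate, or with the replicate block (Atoh1, adjusted p = 0.026), and 0 without each array in turn. The test of the difference between ages, with 0, gave 1 with the intensity trend and 1 without dim genes, and 0 without each array in turn. For the mean of both ages, with 3, the count was 0 with the smooth muscle covariate, 1 with all features tested, and 1 to 3 without each array. It reached 4 at the highest, and Atoh1 gained a call in 5 alternatives and in 2 of the 12 fits without 1 array. With age, the 6 members in knockout and the 4 in wild type became 0 and 0 with the smooth muscle covariate, and 2 and 2 after the pan-epithelial mean was subtracted, and ran from 5 to 6 and from 3 to 5 without each array. The highest counts in other alternatives were 7 in knockout and 5 in wild type. In knockout Spdef gained a call in 4 alternatives and in 1 fit without 1 array. Of 1053 member values under all alternatives, 63 lost a call, 30 gained one, 0 called values changed sign, and 53 values that were not called changed sign, within -0.11 to 0.11. Over all genes, the 764 called at day 15 ran from 78 (smooth muscle covariate) to 1219 (pan-epithelial mean subtracted), with 255 under the stomach covariate, 480 on the compared arrays alone, 1218 with array weights, 502 without replicate 1 of day 15 and 340 to 741 without each array. The 395 at day 30 ran from 237 (compared arrays alone) to 596 (intensity trend), with 218 to 338 without each array. The 6178 with age in knockout fell to 223 with the smooth muscle covariate, and the 5849 in wild type to 37. After the pan-epithelial mean was subtracted, knockout had 7562 (1392 higher and 6170 lower, against 2753 and 3425 without it). Wild type had 9113 (1071 higher and 8042 lower, against 2455 and 3394 without it). The 91 for the difference between ages ran from 30 (smooth muscle covariate) to 207 (intensity trend), with 155 with array weights, 54 under the stomach covariate and 47 to 123 without each array, and the 1064 for the mean of both ages became 235 and 578 with the smooth muscle and stomach covariates, and 668 to 976 without each array. Apart from the covariates' own overlap with the groups, the cause was not tested. The replicate block is given although same-numbered arrays did not deviate together over all groups, and it changed no other member count by more than 1.5 times.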
